A study of Mus musculus with 62 samples.

Results

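The genes described here carry the names of proteins of the cytosolic ribosome, and most of them encode such a protein. They were chosen by name: the deposited name had to begin with Rpl or Rps and a digit, or be Rplp0, Rplp1, Rplp2 or Rpsa, names with the pseudogene mark -ps and the S6 kinase genes (names beginning Rps6k) were left out, and the mean over all long-RNA libraries had to reach 1 TPM (a gene's share of a library's transcripts, corrected for length). The rule took 90 genes of 93 names that fitted it, among 53975 gene identifiers. Of the 90, 37 carry a small subunit name and 53 a large subunit name. The lowest members were Rpl32l at a mean of 4.56 TPM, Rps4l at 7.31 and Rpl29 at 12.7, and the names left out were Rpl3l at 0.03 TPM, with Rpl10l and Rps12l1 listed below 0.01. Rps19bp1, which encodes a binding partner of a ribosomal protein and no subunit, was taken by its name and is kept in the counts. So are 6 members with no coding sequence in the annotation: Rpl6l, Rpl32l, Rpl37rt, Rps3a2, Rps3a3 and Rps4l.

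Each ribosome joins a small subunit, which reads the mRNA, to a large subunit, which forms the peptide bond. Most of their proteins are needed in equal numbers, and the mRNAs that encode them are short, abundant and long lived. In mammals most of these mRNAs begin with a C and a run of pyrimidines, the 5′ terminal oligopyrimidine tract, through which growth signalling by mTOR sets how much of them is translated. Neurons carry ribosomes in the cell body and in dendrites, where local protein synthesis accompanies synaptic plasticity. The same genes have been copied back into the genome many times by reverse transcription, which leaves intronless copies that are mostly pseudogenes.

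The long-RNA libraries came from the pooled left and right hippocampi of single mice and from cultures of HT-22, an immortalised line derived from mouse hippocampus. The mice were APP NL-G-F (APP), whose own App gene carries a humanised and mutated amyloid sequence, or C57BL/6J wild type (WT). At 3 months there were 3 APP and 2 WT mice, and at 6 and at 12 months 3 of each. HT-22 cells first received, over 24 h, either 150 nM of an oligonucleotide of locked nucleic acid (LNA) that targets Hsf1 or a scramble LNA stated at 50 uM. Peptide was then added at 30 uM, either amyloid beta 1-42 (Aβ42) or its reverse sequence, both in DMSO. The 2 scramble groups held 4 cultures each and the 2 anti-Hsf1 groups 3 each, so all HT-22 cells had received an LNA and a peptide, and the LNA doses differed as labelled. Whether same-numbered cultures were grown together is not stated.

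The 17 mouse and 14 HT-22 libraries summed to 999823 to 999917 TPM each. Relative depth, taken as the ratio of coverage to FPKM, was 1.42 to 3.04 for the mice and 0.724 to 2.60 for the cell line. Levels are scaled TPM, which is TPM divided by a median-of-ratios factor computed within mouse or within HT-22 libraries. Where hippocampus and HT-22 are set side by side, and for sums of markers, the factors were computed over all 31 libraries, called the common scale. On the common scale the 8 neuronal markers summed to at most 0.858 scaled TPM in any HT-22 library, with Rbfox3 and Prox1 listed at 0 in all 14, against 1961 to 3466 in hippocampus. The 6 proliferation markers summed to 638 to 730 in HT-22 and 31.5 to 45.8 in hippocampus. The labels give no sex, and all WT libraries of 6 and 12 months were Xist-low with Y-linked Eif2s3y between 20.1 and 26.7 scaled TPM, while all APP and 3-month WT libraries listed Eif2s3y at 0. Genotype and sex therefore cannot be told apart at 6 and 12 months, nor age and sex in WT mice. Hsf1, the target of the LNA, was at 53.8 ± 7.89 scaled TPM (SD, n = 4) with scramble LNA and 48.2 ± 4.81 (n = 3) with anti-Hsf1 LNA under the reverse peptide, and at 61.6 ± 9.31 (n = 4) and 47.2 ± 4.07 (n = 3) under Aβ42. Neither difference passed the test across genes (limma, adjusted p = 0.959 and 0.521).

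The starts of these genes are shown for members on which the results below turn, since the pyrimidine tract is the sequence they are best known to share. Starts were read from the RefSeq promoter table of GRCm38.p6, which matched 66 of the 90 members. Each window below runs 5′ to 3′ on the transcribed strand from 10 bases before the annotated start to 20 bases after it. Capitals mark a run that begins with C within 5 bases of the annotated start and goes on with at least 4 more bases that are each C or T.
Rps27, chr3:90213629-90213658, minus strand: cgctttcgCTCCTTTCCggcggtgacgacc
Rps27rt, chr9:114982720-114982749, minus strand: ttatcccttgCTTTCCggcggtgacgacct
Rps21, chr2:180257369-180257398, plus strand: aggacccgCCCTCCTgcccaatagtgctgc
Rpl39, chrX:37085203-37085232, minus strand: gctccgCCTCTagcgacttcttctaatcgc
Rps15a, chr7:118116128-118116157, minus strand: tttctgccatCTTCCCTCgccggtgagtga
Rpl13a, chr7:45128726-45128755, minus strand: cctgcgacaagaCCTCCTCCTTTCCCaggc
Rps6, chr4:86857348-86857377, minus strand: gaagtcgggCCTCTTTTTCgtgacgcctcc
Rps7, chr12:28635934-28635963, minus strand: cggtttccacccacctacttccgctgtccc
Rplp0, chr5:115559457-115559486, plus strand: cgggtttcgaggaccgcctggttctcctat
Rpl39l, chr16:10170218-10170247, plus strand: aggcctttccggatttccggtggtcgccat

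Such a run stood at an annotated start of 31 of the 66 members (47.0%) and of 5718 of the 27025 genes in the table (21.2%). Annotated starts can lie some bases from the starts used, so a window without capitals, as for Rps7, Rplp0 and Rpl39l, says only that these letters are not there. The windows of Rps27 and Rps27rt share an unbroken run of 19 bases that takes in the end of the tract, although the 2 genes lie on different chromosomes and Rps27rt has 1 exon. The motif CCGGAAG, the core recognised by ETS-family factors, was found on either strand of the 300-base promoter windows of 26 of the 66 members (39.4%) and 9.93% of all genes in the table. The 90 members lie on 19 chromosomes, with 14 on chromosome 7 and 4 on X (Rpl10, Rpl36a, Rpl39 and Rps4x). The coding sequences of the 84 members that have one had a median length of 452 bases and ranged from 78 to 1260.

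How much of the signal of this family lies outside the named rows decides how a level should be read. A search of GRCm38 with each member's coding sequence found 601 near-identical copies (at least 95% identity over at least 90% of the sequence). At least 1 copy was found for 81 of the 90 members, with a median of 5 and up to 54 for Rpl21. Among the deposited rows, 526 others hold such a copy, 509 of them annotated as processed pseudogenes. These rows held 57.1% of the TPM of members and copies together in hippocampus and 60.9% in HT-22. For Rpl17 the member row held 6.86 TPM in hippocampus and its copies 239, and for Rps29 the values were 37.4 and 601. Rpl8, Rps3 and Rps27l were among the members with no such copy. How reads that fit several places were assigned is not stated, so the level of a member with copies is uncertain, and results are given for the member's own row and, where it matters, for the sum with its copies.

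By own rows the family in hippocampus was led by Rplp1, an acidic protein of the stalk that recruits elongation factors. It had a mean of 343 scaled TPM over the 17 libraries (range 194 to 509). Rps15 followed at 228, then Rpl4 at 213, Rpl13a at 187, Rps14 at 183 and Rpl8 at 153. Neighbours in this order overlapped: Rps15 ranged from 151 to 367 and Rpl4 from 184 to 275. The lowest were Rpl39l at 0.04, Rpl32l at 2.07, Rps13 at 5.91 and Rpl17 at 6.98. Of these, Rps13 and Rpl17 had over 90% of their family's TPM in copies. The order of own rows need not hold with copies, since the copies of Rps29 held more TPM than the row of Rplp1.

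In HT-22 cells Rplp0, the protein that anchors the stalk, led by own rows at a mean of 1325 scaled TPM over 14 libraries (range 1000 to 1804). It was followed by Rpl8 at 1238, Rps4x at 1165, Rpl32 at 1103, Rps3a1 at 1012 and Rpl4 at 953. The ranges of all 6 overlapped. Here too the order need not hold with copies: Rps2, among the lowest own rows, reached the level of the highest when summed with its copies. Within groups the members' libraries had a median SD of 0.27 on the log2 scale in mouse and 0.28 in HT-22, against 0.23 and 0.30 over all tested genes. The median deviation of the members in a library had a within-group SD of 0.18 in mouse and 0.19 in HT-22, so members moved together. Counts of members in a direction are therefore not counts of independent results.

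Some members have a paralog, a related gene whose protein can take the same place. Levels of pairs, and of Rpl39l and Rps4l, are given as scaled TPM on the common scale. Rpl22l1 exceeded Rpl22 in hippocampus (125 ± 33.4 against 60.2 ± 18.2, SD, n = 17) and stood below it in HT-22 (80.0 ± 16.6 against 92.8 ± 39.5, n = 14). Their ranges overlapped in both systems. Rps27rt exceeded both Rps27 (197 against 14.4 in hippocampus, 269 against 29.7 in HT-22) and Rps27l (20.1 and 71.1). Rpl36al exceeded Rpl36a on own rows (64.1 against 13.1 in hippocampus), but with copies the order turned (83.5 against 172). Rpl7 exceeded Rpl7l1 in both systems. Rps3a1 likewise exceeded Rps3a2, a listed pair although Rps3a2 is a row with 1 exon and no annotated coding sequence. Rpl3l and Rpl10l were at or near 0 beside Rpl3 and Rpl10.

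Rpl39l and Rps4l were each near 0 in 1 of the systems. Rpl39l, the paralog of the exit-tunnel protein Rpl39, was listed at 0 in 14 of 17 mouse libraries, with a highest value of 0.580, and ranged from 28.7 to 61.5 in HT-22, against 76.5 to 170 for Rpl39. Rps4l, a row with 1 exon and no coding sequence in the annotation, ranged from 11.7 to 24.4 in hippocampus and was listed at 0 in 14 of 14 HT-22 libraries, while Rps4x ranged from 131 to 254 and from 693 to 984. Rpl39l, Rps4l and Rps4x did not overlap between the systems, and Rpl39 did.

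At 6 months nearly the whole family was lower in APP than in WT hippocampus. Of the 89 members tested, 86 had a negative log2 change, with a median of -0.54 against 0.00 over all 17840 genes tested, and the medians of the small (-0.53) and large (-0.56) subunit genes were close. The summed level was 9100, 7025 and 6186 scaled TPM in the 3 WT libraries and 5635, 4990 and 4152 in the 3 APP libraries, without overlap. 11 members passed the test (limma on log2(scaled TPM + 1), Benjamini-Hochberg adjusted p under 0.05), all of them lower. Over all genes 1.66% passed, and 1.24% passed and were lower. For 34 members all APP libraries lay below all WT libraries, and for none above. The share below was 10.1% over all genes.

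The 5 members with the largest changes that passed were Rpl39, Rps21, Rps27, Rps27l and Rps27rt. Rpl39, which lines the tunnel through which the new peptide leaves, measured 71.2, 86.1 and 78.1 scaled TPM in WT and 38.7, 30.0 and 23.4 in APP. The lowest WT library was well above the highest APP library, and the log2 change was -1.35 ± 0.21 (SE, adjusted p = 0.00588 by limma). Rps21, a small subunit protein, measured 285, 214 and 162 in WT and 109, 98.7 and 75.5 in APP (log2 change -1.19 ± 0.20, adjusted p = 0.0111 by limma). Its spread was wider in WT, and the groups did not overlap.

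Rps27, a zinc-binding protein of the small subunit, measured 15.4, 15.3 and 10.0 scaled TPM in WT and 6.18, 4.36 and 5.71 in APP (log2 change -1.17 ± 0.17, adjusted p = 0.00422 by limma). Its intronless relative Rps27rt measured 247, 183 and 169 in WT and 122, 98.8 and 80.5 in APP (-0.99 ± 0.19, adjusted p = 0.0217 by limma). Its paralog Rps27l, which has no near-identical copy, measured 19.9, 22.4 and 15.7 in WT and 12.4, 8.21 and 6.81 in APP (-1.03 ± 0.22, adjusted p = 0.0326 by limma). All 3 rows of this small family were thus lower, each without overlap between the groups. Rps27 and Rps27rt could not be told apart where a read fits both, so their split is uncertain.

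The other 6 that passed, named here after their values were seen, were Rps7, Rpl19, Rplp1, Rps15a, Rpl13a and Rpl24. Their log2 changes lay between -0.94 for Rpl19 and -0.65 for Rpl24. Rpl35a (-2.11), Rps27a (-1.62) and Rpl29 (-1.47) had larger changes than Rpl39 that did not pass. For Rpl35a (adjusted p = 0.105 by limma) the APP libraries were at 37.9, 14.3 and 2.47 scaled TPM and the WT libraries at 67.1, 63.2 and 37.1, which overlap. Of the X-linked members, Rpl39 passed, and Rpl36a (-0.80), Rps4x (-0.34) and Rpl10 (-0.27) did not. Members with the pyrimidine run at an annotated start had a median of -0.63 (n = 31) and the other tested members in the table -0.50 (n = 34).

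**Figure D1:**
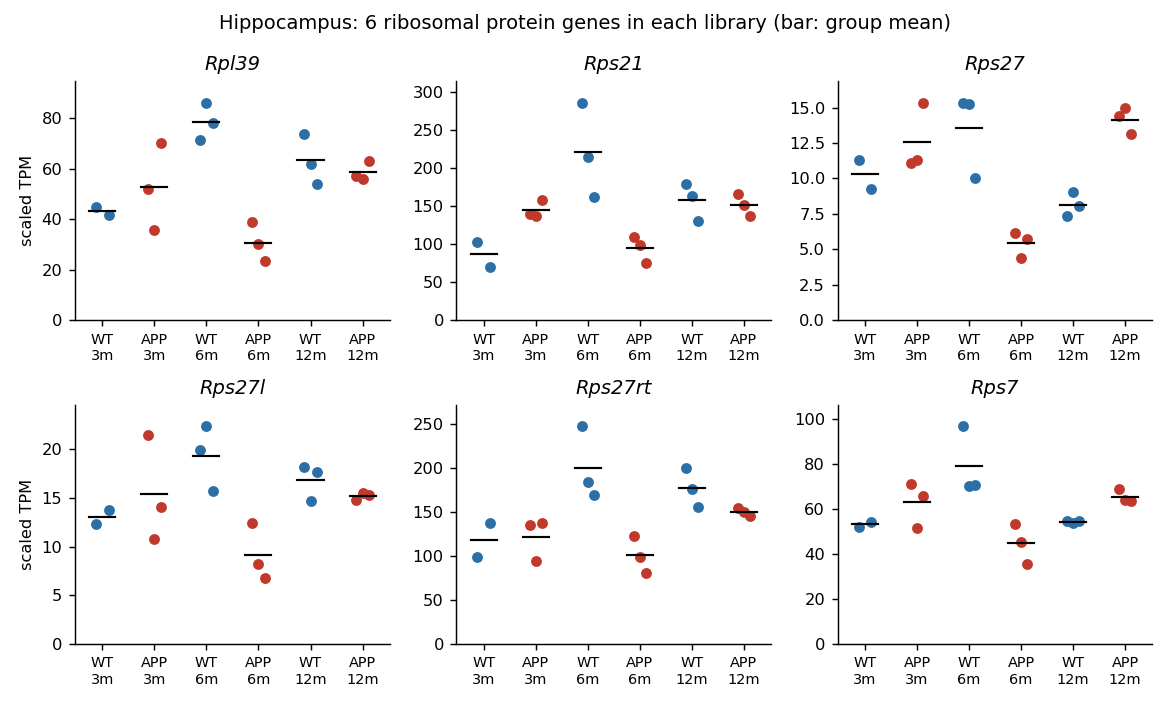
Scaled TPM (vertical axis, linear, from 0) of 6 ribosomal protein genes in each hippocampal library, by genotype and age, with WT in blue, APP in red and bars at group means. At 6 months every APP point of Rpl39, Rps21, Rps27, Rps27l, Rps27rt and Rps7 lies below every WT point.

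Several measurements moved with this difference. The scaling factor was 0.688, 0.779 and 0.836 in the WT libraries and 1.22, 1.12 and 1.46 in the APP libraries of 6 months. The abundant noncoding RNAs Rn7sk, Rmrp, Rpph1 and Rn7s, with any row named Rn45s (the ribosomal RNA precursor), were summed. They took 12.6%, 21.1% and 22.6% of deposited TPM in WT and 13.1%, 7.69% and 4.27% in APP. As a share of deposited TPM, with no scaling, the members took 0.626%, 0.547% and 0.517% in WT and 0.689%, 0.558% and 0.606% in APP, which overlap. With TPM as deposited the median change of the members was 0.13 and that of all genes 0.60, so the members stood lower only relative to the other genes. In that setting 24 members passed, 21 of them higher and 3 lower (Rpl39, Rps21 and Rps27). Of the 17840 genes tested, 10339 passed in the same setting. Shorter genes also moved down: the median change of other protein-coding genes was -0.13 for transcripts up to 700 bases (862 genes) and 0.12 for those over 4000 bases (2473 genes), while the 82 tested mitochondrial ribosomal protein genes had a median of -0.23. With a length trend removed from each library the members' median was -0.44 and 5 passed (Rpl39, Rps15a, Rps21, Rps27 and Rps7). The part of the abundant noncoding RNAs and of sex in the difference was not tested.

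Choroid plexus markers (8 of 8 found) summed on the common scale to 1521 to 1801 scaled TPM in WT and to 54.5 to 1256 in APP at 6 months, and their part in the result was not tested. Fewer cells of a type and less RNA per cell cannot be told apart in these bulk libraries. Single libraries changed how many members passed, which was 3 when WT replicate 1 was dropped, 3 when APP replicate 2 was dropped and 2 when APP replicate 3 was dropped. The median change ran from -0.71 to -0.39 over the 6 fits that each left out 1 of the libraries. With each member summed with its copies, 22 members passed, all lower, 10 of them among the 11, and the median was -0.62.

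At 3 months no member passed (0.303% of all genes did, limma). An unadjusted p under 0.05 was found for 7 of 89 members and for 2385 of the 17840 genes tested (limma). Here 73 of 89 members had a positive change, and the median was 0.22, or 0.031 with TPM as deposited, where that of all genes was -0.16. Cell type markers moved too: all 8 oligodendrocyte genes had a positive change (median 0.50, with Ermn passing), 6 of 8 neuronal genes a negative one (median -0.43, none passing) and all 8 choroid plexus genes a negative one (median -0.30, none passing). Summed on the common scale, the neuronal markers were at 3079 and 3444 in WT and 1961 to 3237 in APP, and the oligodendrocyte markers at 2027 and 2105 in WT and 2170 to 3628 in APP. APP replicate 1 stood apart, with the neuronal gene Slc17a7 at 88.0 scaled TPM against 307 and 355 in the others of its group, and had the highest member sum of that group (6817 against 5227 and 6404). The median was 0.15 without it, and the part of these cells in the result was not tested. Among those with the smallest p, Rps21 measured 70.3 and 103 scaled TPM in WT and 136 to 158 in APP, without overlap (log2 change 0.75, adjusted p = 0.165 by limma). Rpl22l1 measured 46.9 and 81.2 in WT and 73.2 to 116 in APP, with overlap. All APP libraries lay above all WT libraries for 19 of 89 members and for 2455 of 17840 genes, and below them for 0 members and 2387 genes.

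At 12 months no member passed (0.443% of all genes did, limma). Of 89 members 4 had an unadjusted p under 0.05, as did 1255 of 17840 genes (limma), and the members' median change was 0.09. Rps27 had the smallest p: it measured 7.33, 9.03 and 8.09 scaled TPM in WT and 14.4, 14.9 and 13.1 in APP (log2 change 0.73 ± 0.17, adjusted p = 0.0992 by limma). All APP values were above all WT values, the opposite order to 6 months. Rps27rt was in the other order at 12 months, with 156 to 200 in WT and 145 to 154 in APP, without overlap. The split of reads between Rps27 and Rps27rt is uncertain. Over all 17840 genes, all APP libraries lay above all WT libraries for 1547 and below them for 1243. Among the 89 members these counts were 10 and 3. Rps6, the substrate of the S6 kinases, measured 30.5 to 44.2 in WT and 46.2 to 48.4 in APP (adjusted p = 0.445 by limma), and Rpl13 13.6 to 21.1 and 20.1 to 29.8. Among cell type markers at 12 months, 4 of 8 microglial genes and 1 of 7 astrocyte genes (Gfap, log2 change 2.04) were higher in APP by the same test, all 8 choroid plexus genes had a positive change (median 0.92) with none passing, and the part of these cells in the members' values was not tested.

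The genotype difference differed between ages for 2 members, Rps27 (interaction over the 3 ages, limma F test, adjusted p = 0.00601) and Rps21 (adjusted p = 0.0267 by the same test), where 0.437% of all genes passed. At 3 months all libraries of both genotypes listed Eif2s3y at 0, and at 6 and 12 months only WT libraries held it. Where 3 months is set against the later ages, age and the sex of the WT mice therefore cannot be told apart. Relative to the difference at 3 months, that of Rps27 was 1.43 lower on the log2 scale at 6 months and 0.47 higher at 12 months. For Rps21 the differences were 1.94 and 0.79 lower. Rps7 just missed the threshold (adjusted p = 0.0517 by limma). Between 1 and 8 members passed when each library was left out in turn: dropping replicate 2 of WT at 3 months, replicate 1 of WT at 6 months or replicate 3 of APP at 6 months left 1. Dropping replicate 2 of APP at 3 months gave 8, and dropping either its replicate 3 or replicate 1 of APP at 6 months gave 4.

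Within a genotype no member passed between 12 and 3 months. In WT mice 0.0617% of all genes passed, and 12 of 89 members and 1475 of 17840 genes had an unadjusted p under 0.05 (limma). The members' median was 0.19 (-0.15 with TPM as deposited, where that of all genes was -0.29). Among members Rps21 came first (log2 change 0.86, adjusted p = 0.302 by limma), then Rpl7l1 (-0.41) and Rps18 (0.76). In APP mice 3.28% of all genes passed, and 5 of 89 members and 2933 of 17840 genes had an unadjusted p under 0.05 (limma). The members' median was 0.06. The smallest p values there were those of Rps4l (0.41), Rpl22 (0.59) and Rpl21 (0.62). Of the other mRNAs with a tract 1 was lower at 12 months, Nap1l1 (log2 change -0.56, adjusted p = 0.0346 by limma), which encodes a histone chaperone. Cell type markers also moved between these ages. In APP mice 5 of 8 oligodendrocyte genes were lower at 12 months (median -0.72), and 5 of 8 microglial genes (median 1.02) and Gfap were higher. In WT mice 7 of 8 oligodendrocyte genes (median -0.46) and all 8 choroid plexus genes (median -0.75) had a negative change and none passed. The part of these cells in the members' values was not tested.

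**Figure D2:**
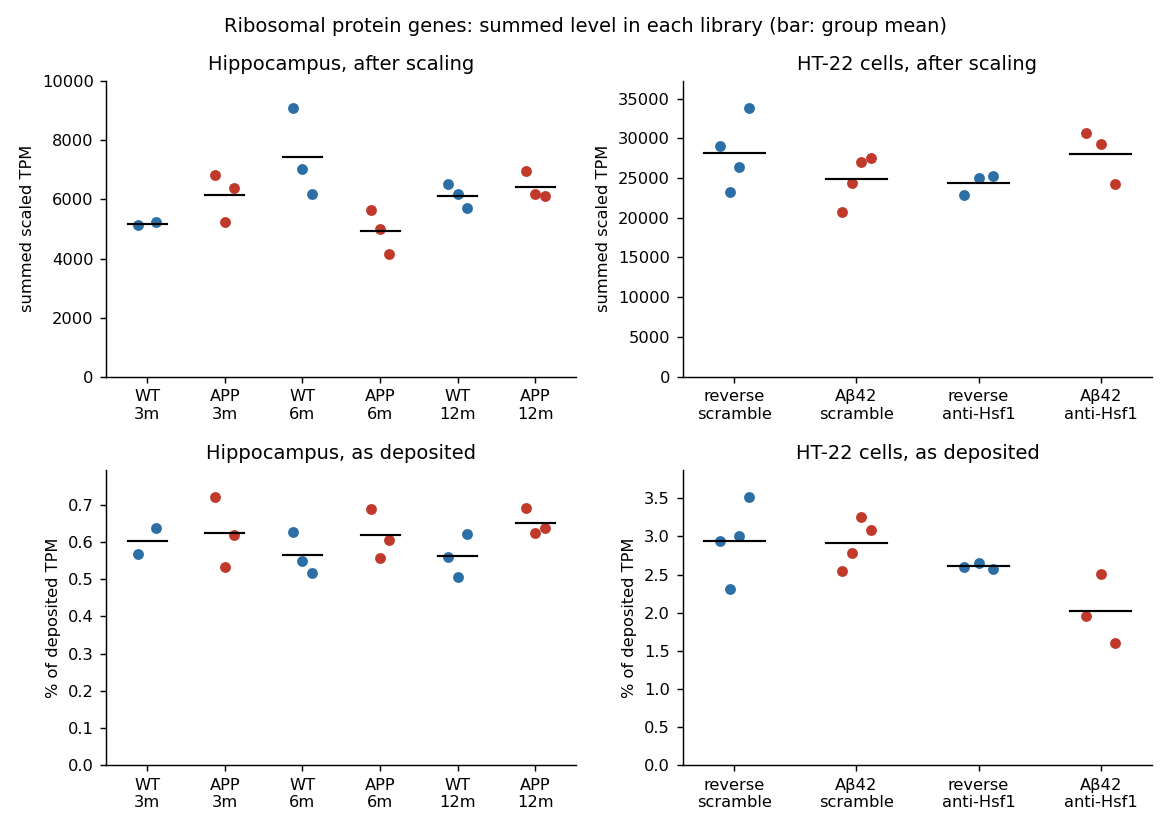
Summed level of the 90 ribosomal protein genes in each library, as summed scaled TPM (upper panels) and as a percentage of deposited TPM (lower panels), for hippocampus (left) and HT-22 cells (right), with points for libraries and bars for group means. After scaling the WT and APP libraries of 6 months do not overlap, while as a share of TPM they do.

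In HT-22 cells no member passed in any comparison of peptide or LNA. Aβ42 against the reverse peptide with scramble LNA gave a median change of -0.22, with 78 of 89 members negative, and 0% of all genes passed (limma). Medians ran from -0.36 to -0.12 when each library was left out in turn. The summed level of all members overlapped, at 23183 to 33822 scaled TPM with the reverse peptide and 20716 to 27458 with Aβ42. The highest sum was that of the library of greatest relative depth (2.60) and the lowest that of the least (0.724). An unadjusted p under 0.05 was found for 19 members and for 866 of the 17291 genes tested (limma). Rpl31, of the large subunit, measured 200 to 283 scaled TPM with the reverse peptide and 136 to 212 with Aβ42 (log2 change -0.63 ± 0.16, adjusted p = 0.821 by limma). Rps20 measured 104, 153, 106 and 114 with the reverse peptide and 75.1, 81.3, 86.3 and 88.1 with Aβ42, without overlap (-0.51 ± 0.15, adjusted p = 0.821 by limma). Rpl21 measured 50.5 to 173 and 32.1 to 46.8, also without overlap. All Aβ42 libraries lay below all reverse-peptide libraries for 7 of 89 members and for 244 of 17291 genes, and above them for 0 members and 163 genes.

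With anti-Hsf1 LNA the same peptide comparison had a median of 0.16, with 71 of 89 members positive (0% of all genes passed, limma). At an unadjusted p under 0.05 there were 5 members and 794 of 17291 genes. Of the members Rps3a3, Rpl26 and Rpl13a had the smallest p. Rps3a3, a row with 1 exon and no annotated coding sequence, measured 138 to 152 with the reverse peptide and 170 to 189 with Aβ42. Rpl26 measured 402 to 509 and 612 to 714. Neither pair of groups overlapped. Over all 17291 genes, all Aβ42 libraries lay above all reverse-peptide libraries for 1503 and below them for 1665. Among the 89 members these counts were 20 and 2. The summed level of all members did overlap, at 22874 to 25249 with the reverse peptide and 24278 to 30679 with Aβ42.

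Anti-Hsf1 against scramble LNA had a median of -0.22 with the reverse peptide (0% of all genes passed, limma) and 0.18 with Aβ42 (0.0231% of all genes passed, limma). At an unadjusted p under 0.05 there were 8 members and 628 of 17291 genes with the reverse peptide. There were 12 members and 1555 of 17291 genes with Aβ42. With the reverse peptide the 3 smallest p values were those of Rpl26 (log2 change -0.54), Rpl17 (-0.44) and Rps20 (0.43). With Aβ42 they were those of Rps20 (0.79 ± 0.16, adjusted p = 0.225 by limma), Rps3a3 (0.39 ± 0.09) and Rpl21 (1.37 ± 0.36). Rps20 measured 75.1 to 88.1 scaled TPM with scramble LNA and Aβ42, 109 to 175 with anti-Hsf1 LNA and Aβ42, and 151 to 168 with anti-Hsf1 LNA and the reverse peptide. It was lowest in all 4 libraries of Aβ42 with scramble LNA.

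The test of whether the peptide difference depends on the LNA gave a median interaction of 0.39, with 78 of 89 members positive, no member passing and 0% of all genes passing (limma). At an unadjusted p under 0.05 there were 19 members and 899 of 17291 genes. First among the members were Rps3a3 (0.54 ± 0.13), Rps21 (1.26 ± 0.37) and Rpl31 (0.79 ± 0.25). The scaling bore most on comparisons with the group given Aβ42 and anti-Hsf1 LNA. The factors were 0.639 to 0.855 in the 3 libraries of Aβ42 with anti-Hsf1 LNA and 0.995 to 1.23 in the other 11. As a share of deposited TPM the members took 1.60% to 2.51% in those 3 and 2.31% to 3.52% in the others. With TPM as deposited the median was -0.42 for the peptide with anti-Hsf1 LNA (12 members passed, all lower), -0.54 for the LNA with Aβ42 (41 passed, all lower) and -0.36 for the interaction (7 passed, all lower), where the medians of all genes were -0.52, -0.62 and -0.68. Of the 17291 genes tested, 4197, 8766 and 4379 passed in these 3 comparisons with TPM as deposited, in that order. The direction of the 3 medians of the members turned with the scaling, and these medians lay above those of all genes in both settings. The other 2 kept their sign, at -0.058 for the peptide with scramble LNA and -0.18 for the LNA with the reverse peptide.

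**Figure D3:**
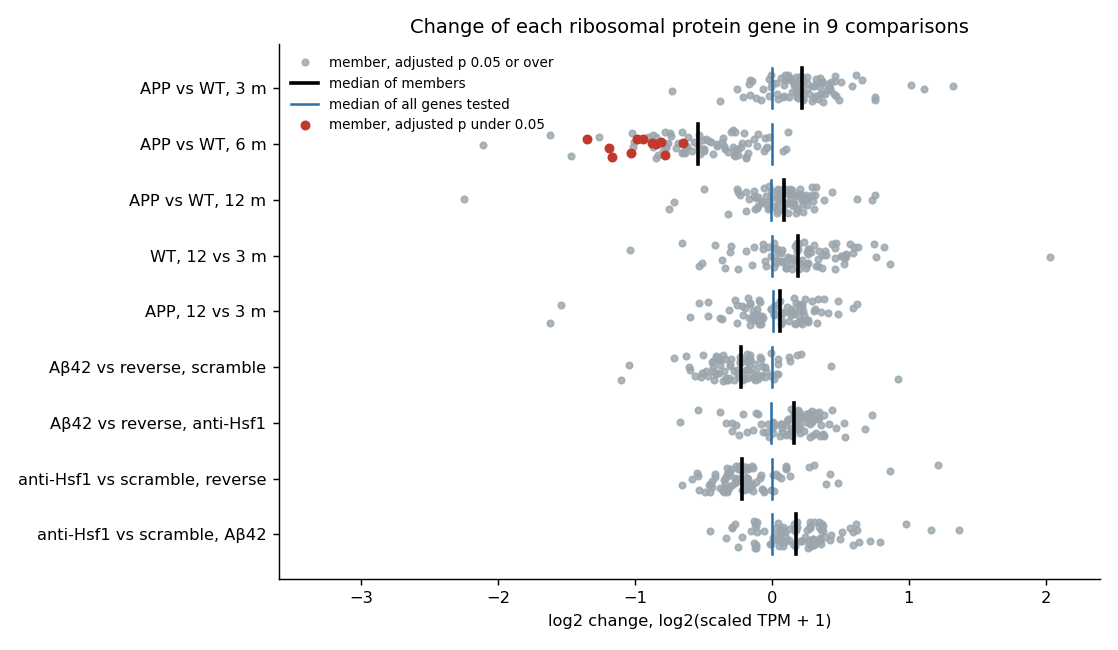
Log2 change of each ribosomal protein gene (horizontal axis, on log2(scaled TPM + 1)) in 9 comparisons, with members that passed the test in red, the members' median in black and the median of all tested genes in blue. The 11 red points are all in the comparison of APP with WT at 6 months, where the median is -0.54.

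Genes of neighbouring pathways were counted in the same fits. At 6 months 0 of 20 other mRNAs with a pyrimidine tract passed (median -0.18), 0 of 25 genes of ribosome biogenesis passed (median -0.04), and 0 of 12 of RNA polymerase I passed (median -0.11). Of 25 translation factors 2 were higher in APP, Eif1, which helps select the start codon (log2 change 1.26), and the X-linked initiation factor gene Eif2s3x (0.56), which was also higher at 12 months (0.56) and whose Y-linked copy is the Eif2s3y named above. Of 15 tested growth signalling genes 1 was higher, Eif4ebp2 (0.56), a repressor of cap-dependent translation. In HT-22 cells 24 of 25 biogenesis genes had a negative change for anti-Hsf1 LNA with Aβ42 (median -0.46) and none passed, while 69 of 89 ribosomal protein genes had a positive one. With the reverse peptide both were mostly negative, 23 of 25 biogenesis genes (median -0.24, none passing) and 73 of 89 ribosomal protein genes. The positive direction of the ribosomal protein genes with Aβ42 depended on the scaling. With TPM as deposited their median was -0.54 there, where that of all genes was -0.62. Of the tract mRNAs outside the ribosome 15 of 20 were positive with Aβ42 (median 0.08) and 4 of 20 with the reverse peptide (median -0.09).

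Between the cell line and the tissue most members differed. HT-22 cells had 78 of 90 members higher and 9 lower than hippocampus (limma, adjusted p under 0.05), with a median of 1.14 against -0.13 over all genes, of which 85.5% passed, 38.2% higher and 47.3% lower. The members took 1.60% to 3.52% of deposited TPM in HT-22 and 0.506% to 0.722% in hippocampus, without overlap. Median changes were 1.04 for the small and 1.19 for the large subunit. System and any batch cannot be told apart here.

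Relative to the members' median the rows furthest above were Rpl39l, Rplp0, Rps6, Rpl23 and Rps4x. On the common scale, used for all levels of this comparison, Rplp0 ranged from 80.1 to 131 scaled TPM in hippocampus (median 102) and from 692 to 1267 in HT-22 (median 877), a log2 change of 3.13 ± 0.08 (SE, adjusted p = 1.34e-22 by limma). Rps6 ranged from 40.9 to 79.9 and from 272 to 393 (2.52 ± 0.06). Rpl23 ranged from 25.1 to 63.3 and from 170 to 273 (2.27 ± 0.07). None of the 3 overlapped between the systems.

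Furthest below were Rps4l, Rps2, Rpl35a, Rps29 and Rpl30. Rps2, a small subunit protein at the mRNA entry, ranged from 45.4 to 110 scaled TPM in hippocampus and from 7.21 to 20.3 in HT-22 (-2.61 ± 0.14), while with its 21 copy rows the sum ranged from 170 to 258 and from 801 to 1483 (2.41 ± 0.07), the opposite direction. In HT-22 the copies held 98.8% of that sum. Rpl35a and Rpl30 also changed sign, from -1.58 to 0.52 and from -0.65 to 1.73. Rps29 was lower by its own row (-0.67) and by the sum (-0.52), but higher with TPM as deposited (0.23), as was Rpl30 (0.25). Over the family, summing turned the sign of 6 members and left 4 lower and 86 higher, and 5 members passed in opposite directions by their own row and by the sum.

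**Figure D4:**
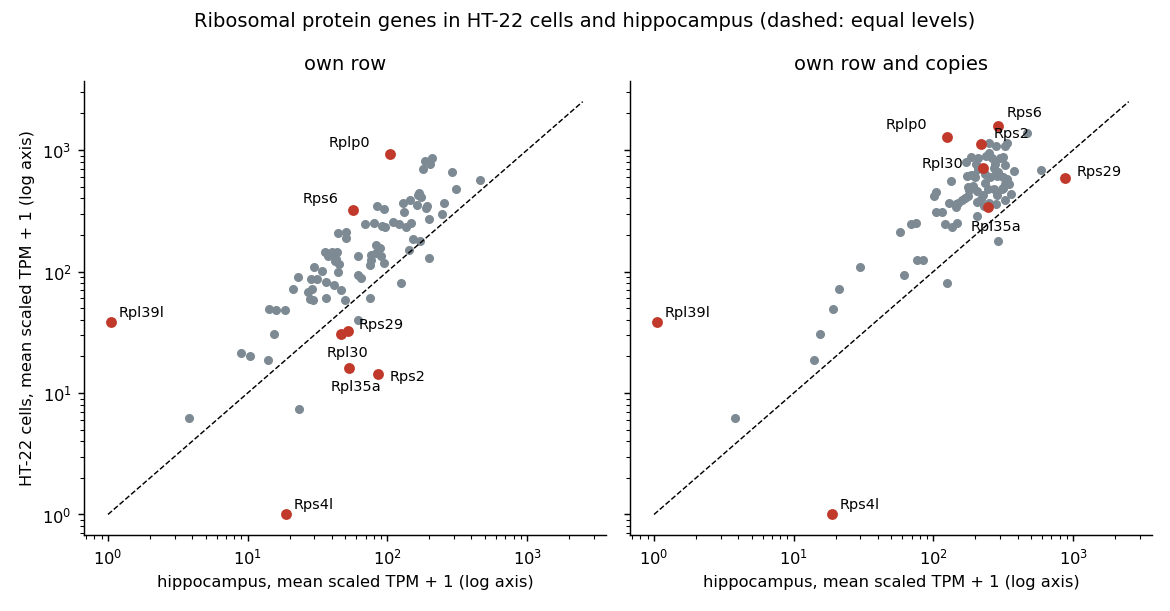
Mean scaled TPM on the common scale, plus 1, of each ribosomal protein gene in hippocampus (horizontal, log axis) and HT-22 cells (vertical, log axis), from the member's own row (left) and summed with its near-identical copies (right), with a dashed line at equal levels. Rps2, Rpl35a and Rpl30 lie below the line on the left and above it on the right, and Rps29 and Rps4l lie below it in both.

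Among the pathway lists in this comparison, 19 of 20 tract mRNAs outside the ribosome were higher in HT-22 (median 1.22), among them Pabpc1, the poly(A)-binding protein, at means of 101 scaled TPM in hippocampus and 654 in HT-22 (log2 change 2.67), and Rack1, a scaffold on the small subunit, at 96.0 and 769 (2.98). Of 12 RNA polymerase I genes 10 were higher and 1 lower (median 0.57), of 25 biogenesis genes 15 and 4 (median 0.47), of 25 translation factors 14 and 3 (median 0.48), and of 16 growth signalling genes 8 and 5 (median 0.12). Over all genes 85.5% passed in this comparison, 38.2% higher and 47.3% lower. The members had a median close to that of the tract mRNAs and above those of the other lists.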

How the data were processed

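Gene abundance tables of 31 long-RNA libraries were used, each library with its own file. Per the file headers, the tables that the authors deposited hold TPM, FPKM and Coverage for each gene. TPM was used for all levels, and the FPKM and the coverage signal deposited by the authors only for relative depth, since none of them gives read numbers per gene. The submitters' processing notes list HISAT2 2.1.0, StringTie 1.3.4d, cutadapt 1.18, FastQC, BWA 0.7.17 and bedtools 2.26.0, with builds mm10 and GRCm38. The sources used here do not say which tool made which file or how reads with several matches were treated. Per the labels' protocols, ribosomal RNA was removed and the rest fragmented. The short-RNA files were not used here.

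Rows with the same identifier were summed. TPM was divided by median-of-ratios factors (over genes above 0 in every library), within mouse, within HT-22 or over all 31 libraries. Genes with mean TPM of at least 1 were fitted on log2(scaled TPM + 1), with limma 3.58.1 (R 4.3.3; trend and robust variance; no covariates), in 1 fit of 17 mouse libraries in 6 groups, 14 HT-22 libraries in 4 groups, or all 31. P-values were adjusted by Benjamini-Hochberg over all genes tested, with a threshold of 0.05, and the fit was tested on simulated data. A log2 change on this scale understates that of low genes. The number of libraries limits the precision, and p-values measure the spread between single mice or cultures.

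Full statistics are given for members that passed (the 5 largest falls where more than 10 passed), for the 3 smallest p elsewhere, for the 6 highest members per system, for listed paralogs and for called genes of each list (up to 4), and some items that this rule names are not reported here. Members and lists were chosen with earlier results of these data known. Coordinates are those of GRCm38. Members were matched to GENCODE M21 (90 of 90) for transcripts, and their coding sequences were searched against GRCm38 by BLAST. Alternatives covered scaling, pseudocount, filter, array weights, a replicate block, separate fits and each library left out. Summing with copies and removing a length trend were added after seeing the data. Same-numbered libraries of different groups had residual correlations of -0.15 to 0.23 (mouse) and -0.22 to 0.57 (HT-22). Those with different numbers had -0.19 to 0.17 and -0.55 to 0.56. The numbers were not taken as pairs, though these values cannot exclude a pairing.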

Additional observations from a re-analysis of the deposited data

Results flagged for a closer look

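For 2 members the genotype difference differed between ages by the interaction test across genes (limma): Rps27 (adjusted p = 0.00601) and Rps21 (adjusted p = 0.0267). For Rps27 the change was -1.17 at 6 months and 0.73 at 12 months, where it did not pass (adjusted p = 0.0992 by limma). The higher row Rps27rt lay in the other order at 12 months, at 156 to 200 scaled TPM in WT and 145 to 154 in APP. The split of reads between Rps27 and Rps27rt is uncertain. In each of the groups of 4 HT-22 cultures the library furthest from the others was compared with the group's range. Of 68 such tests 4 marked a library, where chance alone marks about 1 in 20. With Aβ42 and scramble LNA, 1 library was low for Rpl32 at 837 scaled TPM (the others 1021 to 1034) and for Rps3a3 at 123 (the others 141 to 144). With the reverse peptide and scramble LNA, 1 library was high for Rpl22l1 at 149 (the others 111 to 112) and another for Rpl7l1 at 91.4 (the others 58.2 to 63.6).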

How the results depend on the processing

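With TPM as deposited the members' median turned sign in 5 comparisons. It was 0.13 at 6 months (24 passed, 21 of them higher, where 10339 of 17840 genes passed) and -0.15 for WT mice of 12 against 3 months. For Aβ42 with anti-Hsf1 LNA it was -0.42 (12 passed, where 4197 of 17291 genes passed). For anti-Hsf1 LNA with Aβ42 it was -0.54 (41 passed, where 8766 genes passed), with Rps3a3 at -0.33. For the interaction of peptide and LNA it was -0.36 (7 passed, where 4379 genes passed). The members' median kept its sign but was 0.031 at 3 months and 2.05 for HT-22 against hippocampus (Rps29 0.23, Rpl30 0.25). At 6 months 3 members passed with no filter, 5 with the length trend removed, 22 summed with copies and 2 with the groups fitted alone. Over all genes 101, 106, 235 and 39 passed in these settings, in that order. Leaving out each library in turn gave 2 to 14 members at 6 months, with medians from -0.71 to -0.39. Rpl39 passed and was lower in each of these settings. At 12 months 1 member passed with TPM as deposited, with array weights and with the groups alone, where 114, 151 and 87 of all genes passed. For genotype by age 4 passed with TPM as deposited, 4 with quantile normalisation, 6 with a minimum of 5 TPM, 1 with no filter and 1 summed with copies. Over all genes 5910, 134, 174, 46 and 70 passed in these settings, in that order. With each library left out 1 to 8 members passed for genotype by age. For anti-Hsf1 LNA with Aβ42, array weights gave 10 members (8 higher, 2 lower), where 1825 of 17291 genes passed. Leaving out libraries gave 0 to 1 members there. For HT-22 against hippocampus the median was 1.43 with quantile normalisation, 1.36 with the length trend removed and 1.32 summed with copies, where Rps2 was at 2.41, Rpl35a at 0.52 and Rpl30 at 1.73, and 84 to 87 members passed with each library left out. The cause of these shifts was not tested. The number of libraries and the copies limit what the levels can show.

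A replicate block gave 20 members at 6 months and 5 for genotype by age, where 307 and 130 of all genes passed. The median residual correlation of same-numbered libraries was -0.01 over 40 pairs in mouse and 0.02 over 19 in HT-22, with 3 pairs over 0.1 in each. For libraries with different numbers it was -0.01 over 80 pairs (8 over 0.1) and 0.003 over 54 pairs (6 over 0.1). Whether same-numbered libraries were handled together is not stated, and these values cannot exclude a pairing.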
